A study of Mus musculus with 34 samples.

Results

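The genes of ovarian steroid hormone synthesis were followed in mouse cumulus cells (CCs), the granulosa-derived cells that surround the oocyte. The set held 10 genes chosen for their roles in the pathway: Scarb1, Star, Cyp11a1, Fdx1, Fdxr, Hsd3b1, Cyp17a1, Cyp19a1, Hsd17b1 and Por. They were matched by symbol in a table of read counts with 25965 entries, and each of the 10 had 1 row. RNA sequencing was carried out on 34 libraries from female C57BL/6J mice, each made from about 50 CCs of a single cumulus-oocyte complex after superovulation. The paper gives this number of cells as collected per animal. In the diet-induced obesity protocol, mice of 8 weeks of age received chow diet (CD, 11% of energy from fat) or high-fat diet (HFD, 58% of energy from fat). The groups were 4-week CD (n = 5), 4-week HFD (n = 5), 16-week CD (n = 6), 16-week HFD (n = 7) and mice that gained little weight on HFD over 16 weeks, called low weight gainers (n = 3). In the pharmacological hyperleptinemia protocol, mice of the same strain and age were injected with saline (16 C, n = 3) or with leptin at 100 µg per day (16 L, n = 5) for 16 days. The weight that separated low weight gainers from the other HFD mice was not given in the sources used here. No gene was altered in any of these mice, and all of them shared the superovulation.

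Steroid hormones are made from cholesterol. SCARB1 takes up cholesterol esters from high-density lipoprotein, STAR carries cholesterol to the inner mitochondrial membrane, and CYP11A1 cleaves the side chain to give pregnenolone with electrons passed on by FDXR and FDX1. HSD3B1 then turns pregnenolone into progesterone. CYP17A1, which in the ovary belongs to theca cells, makes androgens, CYP19A1 (aromatase) turns androgens into estrogens, and HSD17B1 reduces estrone to estradiol. POR is the electron donor of CYP17A1, CYP19A1 and other microsomal P450 enzymes. After the ovulatory surge, granulosa and cumulus cells turn from estrogen towards progesterone production.

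Promoter sequence is shown for the members at the head of the pathway's output in these cells, Cyp11a1 and Hsd3b1, because these were the most abundant transcripts per kilobase. The RefSeq table (GRCm38.p6) held 9 promoters of 300 bases for 6 of the 10 members, each running from 250 bases before to 50 bases after a transcript start. Capitals mark a motif, AGGTCA (the core half-site of many nuclear receptors) in Cyp11a1 and CCAAT in Hsd3b1. The Cyp11a1 sequence is chr9:58014702-58015001 on the plus strand and the Hsd3b1 sequence chr3:98859745-98860044 on the minus strand, both written 5′ to 3′ along the gene.
Cyp11a1: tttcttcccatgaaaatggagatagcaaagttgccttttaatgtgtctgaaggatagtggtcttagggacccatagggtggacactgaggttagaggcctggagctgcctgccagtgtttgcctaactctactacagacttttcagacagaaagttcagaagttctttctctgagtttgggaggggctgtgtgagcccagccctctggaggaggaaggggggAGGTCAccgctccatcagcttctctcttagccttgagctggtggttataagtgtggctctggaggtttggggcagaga
Hsd3b1: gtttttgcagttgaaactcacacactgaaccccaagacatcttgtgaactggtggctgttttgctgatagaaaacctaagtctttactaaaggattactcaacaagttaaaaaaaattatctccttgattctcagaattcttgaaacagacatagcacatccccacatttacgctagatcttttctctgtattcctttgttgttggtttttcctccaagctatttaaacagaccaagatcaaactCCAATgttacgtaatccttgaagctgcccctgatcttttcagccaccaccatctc
On either strand, AGGTCA was found in 2 of the 9 member promoters and in 16.3% of the 32851 promoters of the table. CCAAT was found in 4 of the 9 and in 37.4% of the table. The longer AAGGTCA, which contains AGGTCA, and the cAMP response element TGACGTCA were found in 0 of the 9, against 4.72% and 1.79% of the table. The search for AGGTCA was added after AAGGTCA had been found in none of these windows. These letters are a description of the windows and no binding was measured.

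The libraries held between 1104611 and 13207018 counted reads. Markers of granulosa cells were present in every library (summed level 677 to 2139 RPM, reads per 1000000 counted reads), and those of cumulus expansion (Has2, Ptx3, Tnfaip6 and Ptgs2) reached 263 to 2195 RPM in 33 of 34. The exception was 16 L replicate 18, with 1.94 RPM of expansion markers, 31666 RPM of oviduct epithelium markers, 9805 RPM of red blood cell markers and 1596 RPM of theca and stroma markers. This library goes against its label, and the leptin results are given with and without it. Other leptin libraries held markers of further cell types too. Oviduct epithelium markers were at 1869, 2480 and 892 RPM in 16 L replicates 20, 21 and 23 and at 159 RPM in replicate 19. Outside 16 L they reached 493 RPM at most. Replicate 21 also had 2549 RPM of red blood cell markers and 74.2 RPM of theca and stroma markers. A further library, 4-week HFD replicate 5, had 384 RPM of oocyte markers (9 of 9 in the table), against 0 to 14.9 RPM in the other 33. The first principal component of the other genes took 35.4% of the variance. All 4-week libraries and 16 L replicates 19, 20, 21 and 23 were on its positive side (36.0 to 99.9), and so were 16-week CD replicates 1 and 2 (73.0 and 65.1). The other 16-week CD libraries, 16-week HFD, low weight gainers, 16 C and 16 L replicate 18 were on the negative side (-103 to -30.1). No batch is named in the labels. The p-values measure the spread between these libraries, each from a different complex, with the cells collected per animal. In such bulk samples fewer cells of a type and less RNA per cell cannot be told apart.

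Per kilobase of exon, the progesterone enzyme Hsd3b1 was the highest member in all 7 groups, with group means of 1247 (16 C) to 2651 RPM per kb (16-week CD). Cyp11a1 came next (259 to 937 RPM per kb) and then Fdx1 (194 to 631 RPM per kb), again in all 7 groups. In 16 C the gap between Cyp11a1 (259 ± 32.5, SD, n = 3) and Fdx1 (242 ± 46.5, SD, n = 3) was smaller than the spread between libraries. Fdxr, Star, Scarb1 and Hsd17b1 followed in an order that changed between groups, with means of 12.2 (Scarb1, 16 C) to 257 RPM per kb (Fdxr, 4-week CD). Por was the eighth gene in all groups (2.75 to 14.8 RPM per kb).

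At the other end were aromatase and the androgen enzyme. Cyp19a1 was the ninth member in all 7 groups (0.145 to 1.78 RPM per kb) and Cyp17a1 the tenth. Cyp17a1 had 0 counts in 32 of 34 libraries, 1 count in 4-week CD replicate 2 and 26 counts in 16 L replicate 18, the library with theca and stroma markers at 1596 RPM. A count of 0 allows up to 3 counts, which was 0.227 to 2.72 RPM depending on the library, and this limit covers counting error only, since the reads carry no molecular identifiers. Reads of Hsd3b1 could be shared with its close paralogs. The paralog Hsd3b6 had group means of 0.290 to 2.84 RPM, against 2313 to 4918 RPM for Hsd3b1.

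**Figure D1:**
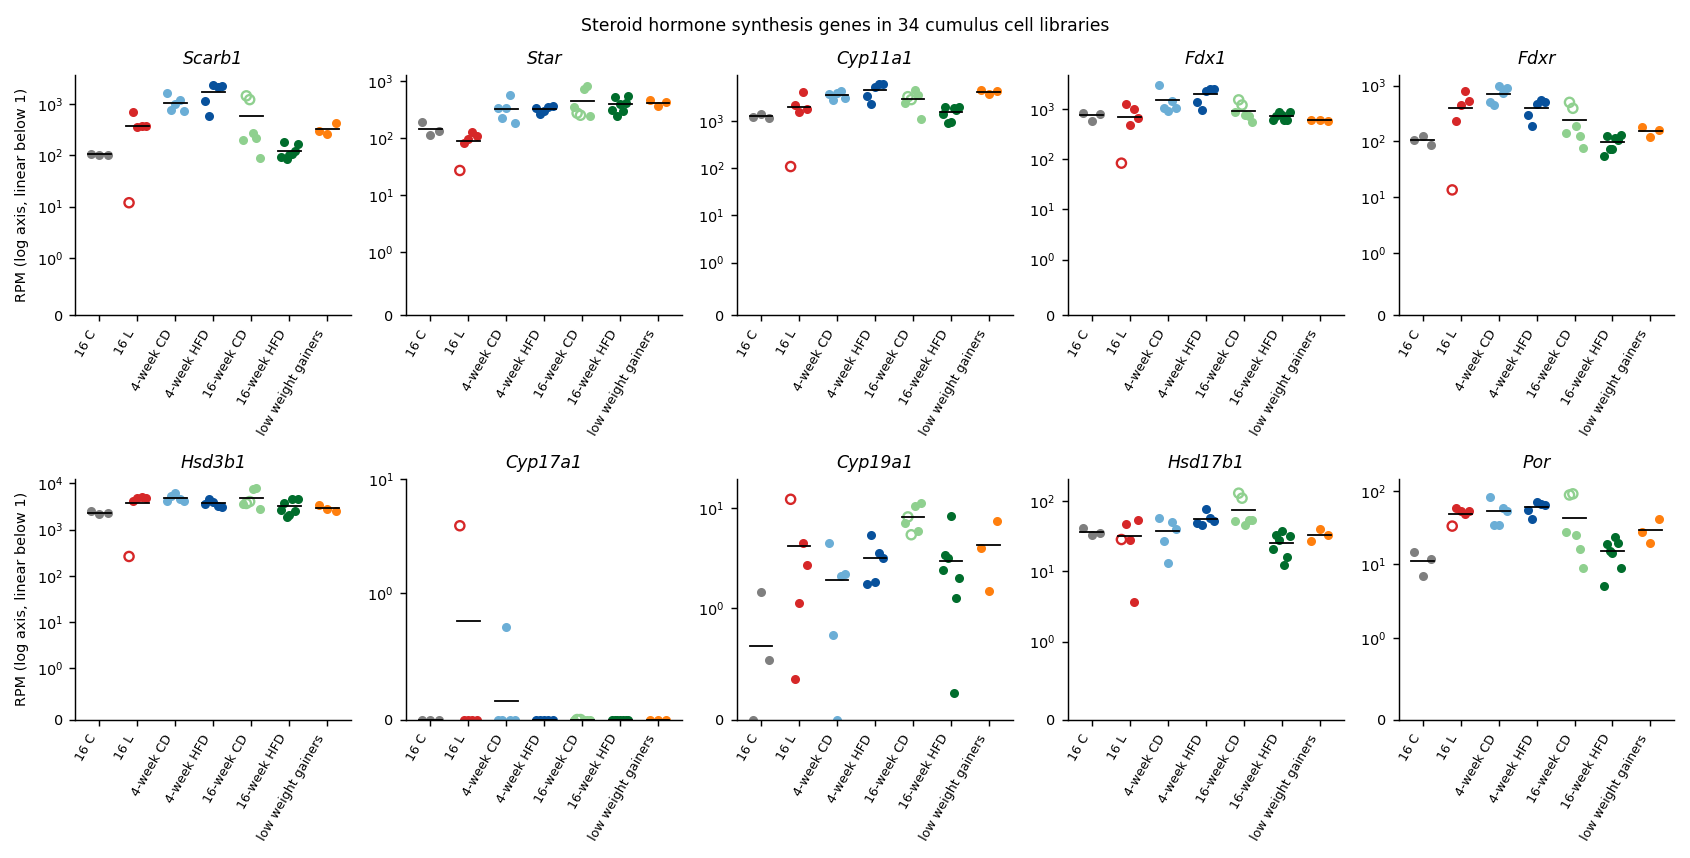
Level of each of the 10 members in every library, in RPM on a log axis that is linear below 1, by group. Points are libraries, bars are group means, and open circles are 16 L replicate 18 and 16-week CD replicates 1 and 2. Hsd3b1 and Cyp11a1 are the 2 highest members in all 34 libraries, Cyp19a1 stays at or below 12.2 RPM, and 16 L replicate 18 is the lowest library of Scarb1, Star, Cyp11a1, Fdx1, Fdxr and Hsd3b1.

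The first question was whether leptin injection without obesity changed the genes of steroid synthesis in CCs. Star was lower and Por was higher in 16 L than in 16 C, and none of the other 6 members tested passed the threshold. For Star, counts per 1000000 reads after scaling by the trimmed mean of M-values (TMM CPM) were 261, 177 and 191 in the 16 C replicates 1, 2 and 3. In 16 L they were 30.0 in replicate 18, then 67.7, 72.7, 97.7 and 82.0 in replicates 19, 20, 21 and 23. All 5 leptin libraries were below all 3 saline libraries on this scale, and Star fell by 1.58 on the log2 scale (SE 0.38, edgeR quasi-likelihood adjusted p = 0.0394). Per counted read the groups overlapped (26.8 to 129 RPM against 113 to 192 RPM), and 4 of 5 leptin libraries were below all saline libraries.

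Por moved the other way. It was at 14.5, 6.97 and 11.7 RPM in 16 C and at 33.1, 57.9, 53.2, 48.0 and 53.1 RPM in 16 L, so that all 5 leptin libraries were above all saline libraries on both scales. The log2 fold change was 1.38 (SE 0.33, edgeR adjusted p = 0.0389). Its ovarian partners Cyp17a1 and Cyp19a1 were too low for the count model in this comparison and were tested by permutation, as described further on. These 2 calls among 8 tested members stand beside a background of 8.56% of the 11723 genes tested, with 4.06% higher and 4.5% lower. No overlap after TMM scaling was found for 11.5% of genes in the lower direction and 11.9% in the higher one (26.8% per counted read). The median log2 fold change was -0.24 over the members and 0.27 over all genes tested.

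With each library left out in turn, Star lost its call in 6 of 8 fits and Por in 6 of 8 (for both, without 16 C replicates 1, 2 or 3 or 16 L replicates 20, 21 or 23). Without 16 L replicate 18, Star was at -1.47 (adjusted p = 0.00153) and Por at 1.34 (adjusted p = 0.00499), and Scarb1 (1.13, adjusted p = 0.0189) and Fdxr (1.21, adjusted p = 0.0351) passed as well. When libraries were scaled by their totals, the median of all genes moved to 1.08 and Star to -0.72 (adjusted p = 0.234), while Por stood at 2.18 (adjusted p = 0.0112). With no filter on low counts neither passed (Star -1.54, adjusted p = 0.0648 and Por 1.42, adjusted p = 0.0657).

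For Scarb1 and Fdxr, replicate 18 stood apart from the other leptin libraries. Scarb1 was at 106, 103 and 102 RPM in 16 C and at 11.9, 704, 361, 372 and 364 RPM in 16 L replicates 18, 19, 20, 21 and 23. Fdxr had the same shape, with 107, 125 and 85.7 RPM against 13.6, 230, 447, 793 and 528 RPM. Replicate 18 was thus below every saline library and the other 4 leptin libraries above every one of them. With all libraries, neither gene passed the threshold (Scarb1 0.91, SE 0.81, adjusted p = 0.456 and Fdxr 0.98, SE 0.83, adjusted p = 0.433).

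Hsd17b1, the estradiol enzyme, gave 41.4, 32.8 and 35.5 RPM in 16 C and 28.3, 47.2, 28.3, 3.62 and 53.1 RPM in 16 L. After TMM scaling its 5 leptin libraries were below the saline libraries, but the difference did not pass (-0.95, SE 0.61, adjusted p = 0.297). Fdx1 (-0.98, SE 0.63), Cyp11a1 (-0.28, SE 0.77) and Hsd3b1 (-0.19, SE 0.71) did not pass either, with adjusted p of 0.303, 0.825 and 0.872. Without replicate 18 the values were -1.09 for Hsd17b1, -0.79 for Fdx1, -0.069 for Cyp11a1 and 0.023 for Hsd3b1, and none of these 4 passed (adjusted p of 0.0976 to 0.949).

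Other cell markers moved with the leptin groups. The summed oviduct epithelium markers (8 of 8 in the table) were at 128 to 162 RPM in 16 C, where 2 of them were at 0, and at 159 to 31666 RPM in 16 L. Macrophage markers (7 of 8 in the table) were at 88.9 to 493 RPM against 122 to 1863 RPM, red blood cell markers (3 of 5 in the table) at 1.06 to 19.3 RPM against 3.74 to 9805 RPM, and theca and stroma markers (8 of 8, with 2 at 0 in 16 C) at 0.559 to 2.50 RPM against 4.22 to 1596 RPM. Expansion markers (4 of 4) were at 882 to 1404 RPM against 1.94 to 846 RPM. Most of this sum was Tnfaip6 (804 to 1317 RPM against 1.64 to 521 RPM), and the other markers did not follow it. Ptgs2 was at 43.9 to 58.7 RPM in 16 C and at 0.298, 168, 165, 41.6 and 140 RPM in 16 L replicates 18, 19, 20, 21 and 23. Ptx3 (16.8 to 39.8 RPM against 0 to 178 RPM) and Has2 (3.35 to 4.24 RPM against 0 to 18.6 RPM) overlapped between the groups. The first principal component was at -101 to -56.6 in 16 C and at 54.1 to 98.7 in 16 L replicates 19, 20, 21 and 23. Leaving out replicate 18 does not remove all of these differences. Oviduct epithelium markers were still at 892 to 2480 RPM in replicates 20, 21 and 23, though replicate 19 was at 159 RPM. The part of these differences in the Star and Por results, and in those of Scarb1 and Fdxr without replicate 18, was not tested.

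**Figure D2:**
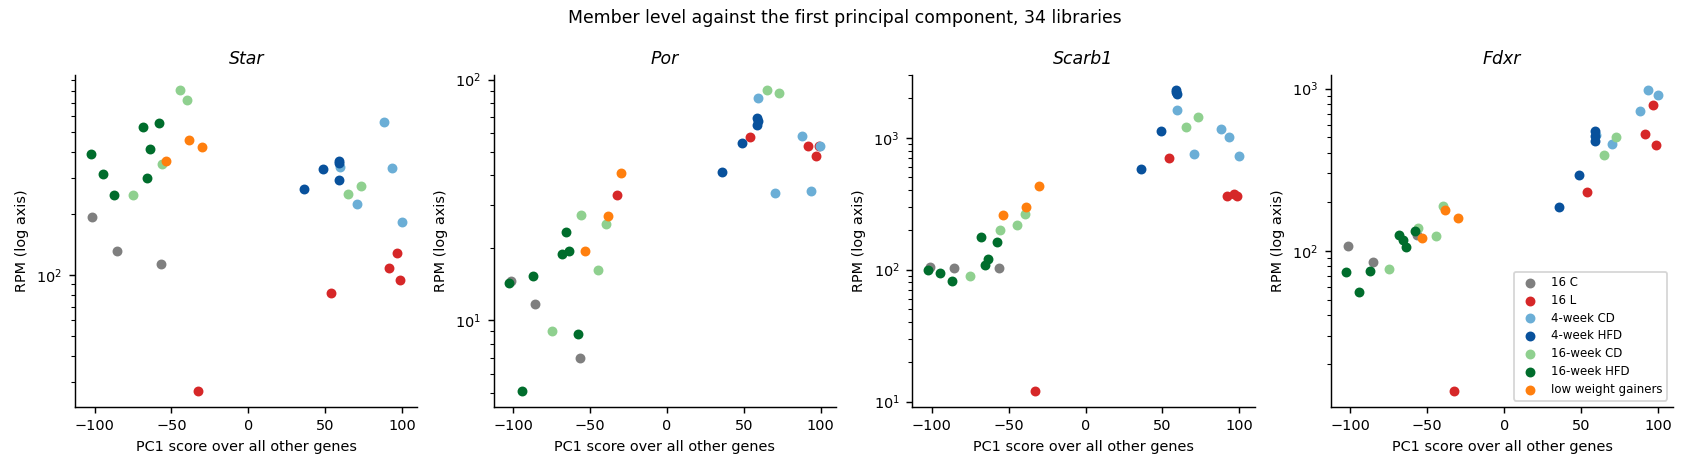
Level of Star, Por, Scarb1 and Fdxr in RPM (log axis) against the score of the first principal component, which was computed from all other genes, in 34 libraries coloured by group. For Por, Scarb1 and Fdxr the libraries on the positive side lie mostly above those on the negative side, with 16-week CD replicates 1 and 2 (Scarb1 1430 and 1206 RPM) beside the 4-week libraries. For Star the 16 L points lie at 26.8 to 129 RPM and overlap with 16 C.

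In the early obesity comparison, 4-week HFD against 4-week CD, none of the 8 members tested passed the threshold, beside a background of 4.26% of 11727 genes tested. For 3 members the unadjusted p was under 0.05, as for 24.3% of all genes tested. Scarb1 was at 1633, 759, 1007, 1170.1 and 727 RPM in 4-week CD (replicates 11, 1, 2, 7 and 8) and at 1118, 583, 2319, 2153 and 2231 RPM in 4-week HFD (replicates 13, 14, 3, 4 and 5) (log2 fold change 0.77, SE 0.36, edgeR adjusted p = 0.200). HFD replicates 3, 4 and 5 were above all chow libraries and replicate 14 below all of them. Fdxr was at 519, 453, 985, 730 and 917 RPM in chow and at 293, 186, 476, 545 and 507 RPM in HFD (-0.74, SE 0.31, adjusted p = 0.164), again with overlap. Hsd17b1 was at 58.0, 27.4, 13.2, 50.3 and 40.4 RPM in chow and at 48.7, 46.1, 75.9, 57.5 and 51.9 RPM in HFD (0.68, SE 0.30, adjusted p = 0.173). The remaining members had log2 fold changes of -0.29 (Hsd3b1) to 0.49 (Fdx1). With limma-voom and sample quality weights, 4 members (Scarb1, Cyp11a1, Fdx1 and Hsd17b1) passed as higher. Without 4-week HFD replicate 5 none of the 8 passed (Scarb1 0.66, Fdxr -0.82 and Hsd17b1 0.73).

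After 16 weeks, none of the 9 members tested passed the threshold between HFD and CD, in a comparison that called 3 of 10861 genes (0.0276%). An unadjusted p under 0.05 with a lower level in HFD was found for 5 of the 9 members and for 17.3% of all genes tested. The median log2 fold change was -0.83 over the members and -0.05 over all genes. Hsd17b1 was the only member with no overlap on either scale. Its libraries ran from 45.6 through a median of 53.1 to 129.5 RPM in chow and from 12.2 through 28.3 to 37.6 RPM in HFD, with a log2 fold change of -1.14 (SE 0.27, edgeR adjusted p = 0.0654). No overlap in the lower direction was found for 0.718% of genes on the RPM scale and 0.488% after TMM scaling.

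Scarb1, the lipoprotein receptor, ran from 89.7 through 242 to 1430 RPM in chow and from 82.8 through 108 to 177 RPM in HFD (-1.70, SE 0.44, adjusted p = 0.0654). The chow group was split. Replicates 1 and 2 stood at 1430 and 1206 RPM and the other 4 at 89.7 to 265 RPM. Fdxr (501 and 392 RPM against 77.7 to 190 RPM), Por (87.8 and 90.9 RPM against 9.03 to 27.5 RPM) and Hsd17b1 (129.5 and 109.9 RPM against 45.6 to 53.1 RPM) were split the same way. For Star, replicates 1 and 2 (272 and 250 RPM) were within the range of the other chow libraries (246 to 810 RPM).

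With both of these libraries left out, an alternative chosen after seeing the data, Scarb1 moved to -0.46 (adjusted p = 0.518) and Hsd17b1 to -0.85 (adjusted p = 0.40). Without 16-week CD replicate 9, 4 members passed the threshold (Scarb1, Fdxr, Hsd17b1 and Por, all lower). DESeq2 called Scarb1 and Hsd17b1. Whether members differed after 16 weeks therefore turned on single chow libraries and on the tool.

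Fdxr (-0.83, SE 0.29, adjusted p = 0.101) and Por (-1.03, SE 0.41, adjusted p = 0.134) did not pass. Cyp19a1 was at 5.41 to 11.3 RPM in chow (median 7.62) and at 0.240 to 8.27 RPM in HFD (median 2.41), with 6 of 7 HFD libraries below all chow libraries (-1.31, SE 0.53, adjusted p = 0.135). Cyp11a1 (-0.60, SE 0.31), Hsd3b1 (-0.35, SE 0.35), Star (0.11, SE 0.34) and Fdx1 (0.03, SE 0.23) had adjusted p of 0.226 to 0.949.

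On the same HFD for the same 16 weeks, Scarb1 and Cyp11a1 were higher in low weight gainers than in the other HFD mice. Scarb1 was at 298, 260 and 429 RPM in low weight gainers, and in 16-week HFD it ran from 82.8 through 108 to 177 RPM. Cyp11a1 was at 4479, 3762 and 4203 RPM, and in 16-week HFD it ran from 912 through 1690 to 1975 RPM. All 3 low weight gainers were above all 7 HFD libraries for both genes.

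The log2 fold change was 1.28 for Scarb1 (SE 0.21, edgeR adjusted p = 0.00131) and 1.28 for Cyp11a1 (SE 0.26, adjusted p = 0.00358). These were 2 of 9 members tested, both higher, in a comparison that called 20.7% of 11258 genes (10.8% higher). The share of members called in either direction was thus close to that over all genes. No overlap in the higher direction was found for 12.9% of genes per counted read and 11.5% after TMM scaling. Both were called in all 10 fits with a library left out, with log2 fold changes of 1.12 to 1.38 for Scarb1 and 1.20 to 1.33 for Cyp11a1. In a fit of all 34 libraries, where all groups share an estimate of the spread, neither was called (adjusted p = 0.180 and 0.0937). Granulosa markers (1088 to 1285 RPM against 677 to 1675 RPM) and expansion markers (640 to 710 RPM against 335 to 2195 RPM) overlapped between these groups. The first principal component was at -53.5 to -30.1 in low weight gainers and at -103 to -57.9 in 16-week HFD, and its part in the result was not tested.

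The other members tested did not pass the threshold. Por was at 27.1, 19.5 and 41.0 RPM against 5.06 to 23.3 RPM (0.79, SE 0.33, adjusted p = 0.0898) and Fdxr at 179, 119 and 158 RPM against 55.9 to 132 RPM (0.49, SE 0.21, adjusted p = 0.105). Star, which delivers cholesterol to CYP11A1, was at 458, 363 and 425 RPM against 247 to 555 RPM (-0.08, SE 0.23, adjusted p = 0.842). Hsd3b1 (-0.25), Fdx1 (-0.45), Hsd17b1 (0.23) and Cyp19a1 (0.49) had adjusted p of 0.183 to 0.620.

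Against 16-week CD, none of 9 members passed in low weight gainers, in a comparison that called 0.00861% of 11620 genes. This comparison shares its libraries with the comparisons above. The smallest unadjusted p was that of Hsd17b1, at 27.3, 39.7 and 32.9 RPM against 45.6 to 129.5 RPM, without overlap per counted read (as for 5.04% of genes) but with overlap after TMM scaling (-0.88, SE 0.30, edgeR adjusted p = 0.350). Cyp11a1 had a log2 fold change of 0.69 (SE 0.43, adjusted p = 0.57) and Scarb1 one of -0.38 (SE 0.65, adjusted p = 0.868), with the direction of Scarb1 turning to 0.80 (adjusted p = 0.222) without 16-week CD replicates 1 and 2. Star (0.038), Fdx1 (-0.39), Fdxr (-0.31), Hsd3b1 (-0.59), Cyp19a1 (-0.85) and Por (-0.21) had adjusted p of 0.580 to 0.988.

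**Figure D3:**
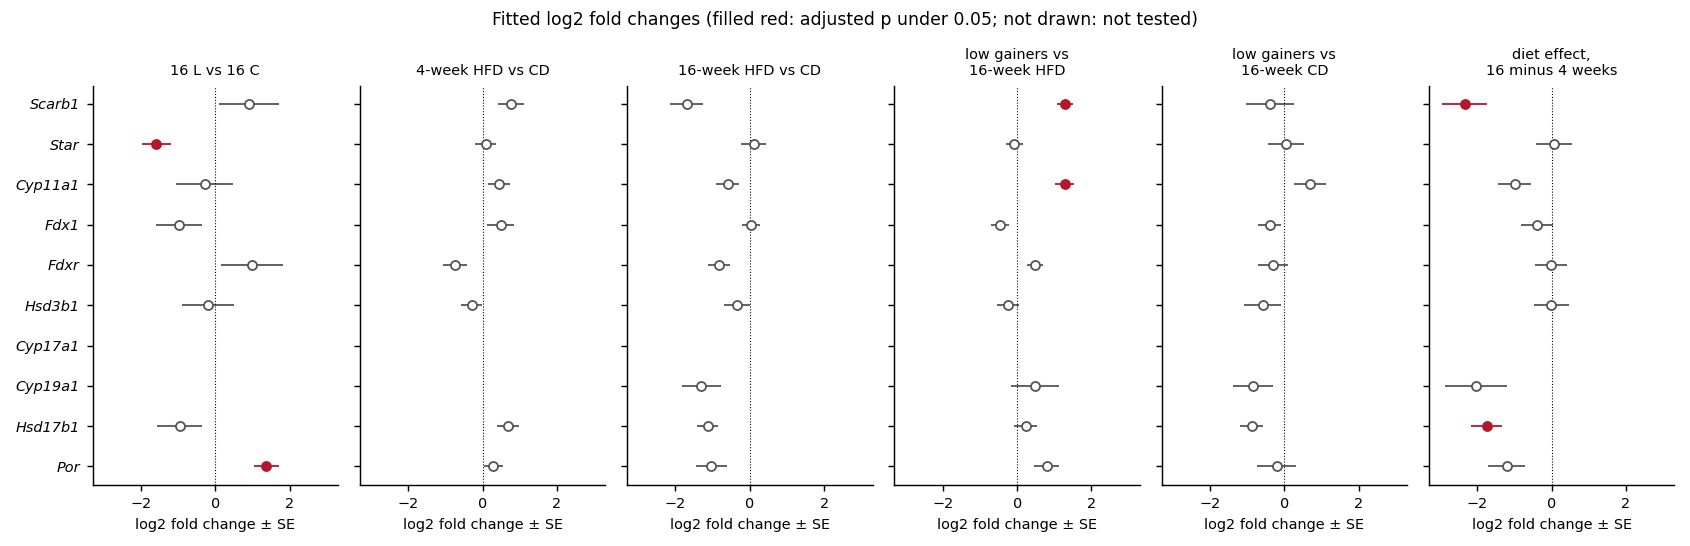
Fitted log2 fold changes with their standard errors for the members in 6 comparisons (filled red, edgeR adjusted p under 0.05). The filled points are Star and Por in 16 L against 16 C, Scarb1 and Cyp11a1 in low weight gainers against 16-week HFD, and Scarb1 and Hsd17b1 for the change of the diet effect between 4 and 16 weeks. Members without a point had too few counts.

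Whether the diet effect itself differed between early and late obesity was tested as an interaction over the 4 diet groups. Scarb1 and Hsd17b1 passed, with the diet difference lower at 16 weeks than at 4 weeks. For Scarb1 the log2 difference between the diet effects was -2.34 (SE 0.59, edgeR adjusted p = 0.0303). Fitted separately at each time, its diet effect was 0.77 at 4 weeks and -1.70 at 16 weeks, and these fits need not subtract to the value of the joint one. For Hsd17b1 it was -1.74 (SE 0.41, adjusted p = 0.0256), with separately fitted effects of 0.68 and -1.14. These were 2 of 9 members, both lower, in a comparison that called 3.66% of 12235 genes (1.92% lower). Cyp19a1 (-2.04, SE 0.83, adjusted p = 0.138), Por (-1.21, SE 0.50, adjusted p = 0.144) and Cyp11a1 (-1.0, SE 0.46, adjusted p = 0.183) had the same sign without passing. Star (0.05), Fdxr (-0.01), Hsd3b1 (-0.01) and Fdx1 (-0.40) had adjusted p of 0.613 to 0.995.

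The call of Scarb1 was kept in 14 of 23 fits with a library left out and that of Hsd17b1 in 18 of 23. Scarb1 lost its call without 16-week CD replicates 1 or 2, 16-week HFD replicate 15, 4-week CD replicates 1, 2 or 8, or 4-week HFD replicates 3, 4 or 5. Hsd17b1 lost it without 4-week CD replicates 1 or 8 or 4-week HFD replicates 3, 4 or 5. Without 16-week CD replicates 1 and 2 together, Scarb1 was at -1.29 (adjusted p = 0.132) and Hsd17b1 at -1.57 (adjusted p = 0.0638). In the fit of all 34 libraries neither passed (Scarb1 -2.46, adjusted p = 0.0632 and Hsd17b1 -1.82, adjusted p = 0.0557). With the replicate number as a block, they were at -2.49 (adjusted p = 0.197) and -2.06 (adjusted p = 0.169). The same number stands for different mice in different groups, so this block is not a pairing and cannot decide whether the calls hold.

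**Figure D4:**
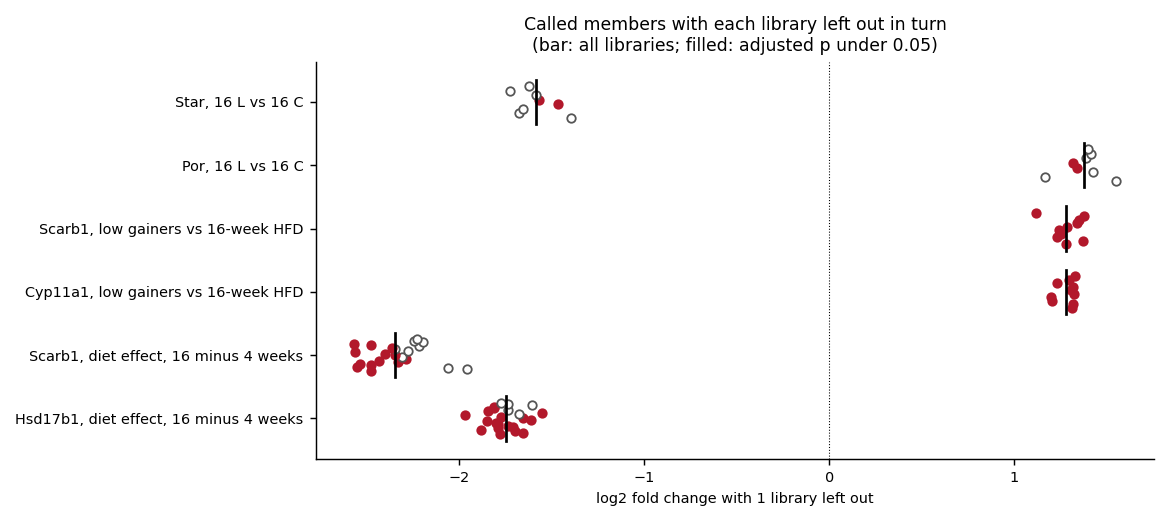
Log2 fold change of each called member with each library of its comparison left out in turn (points, filled where the edgeR adjusted p stays under 0.05) beside the value from all libraries (bar). Scarb1 and Cyp11a1 in low weight gainers are filled in all 10 fits, while Star and Por in 16 L are filled in 2 of 8.

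Aromatase and CYP17A1 were too low for the count model in the leptin and 4-week comparisons, and an exact permutation test on log2(RPM + 1) was used in its place. Cyp19a1 had 21 counts in the 3 libraries of 16 C and 98 counts in the 5 libraries of 16 L, at 0, 1.44 and 0.530 RPM and at 12.2, 0.362, 1.13, 4.53 and 2.68 RPM. The groups overlapped, and replicate 18 was the highest library (difference 1.29 on the log2(RPM + 1) scale, two-sided exact permutation p = 0.179). It supplied 82 of the 98 leptin counts, and without it the difference was 0.84 (two-sided exact permutation p = 0.286). For Cyp17a1 the 26 leptin counts all came from replicate 18 (two-sided exact permutation p = 1 with it). This p was fixed in advance, since the single library with counts lay in the larger group, and it decides nothing. In the 4-week diet groups Cyp19a1 was at 4.46, 0.757, 0, 2.10 and 2.18 RPM in chow and at 1.73, 5.38, 1.83, 3.55 and 3.2 RPM in HFD (difference 0.66, two-sided exact permutation p = 0.198). Cyp17a1 was not detectable at this depth in any group but 4-week CD and 16 L, each through a single library.

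Beyond the 10 members, 49 genes of the wider pathway were read in 4 lists, of cholesterol supply (10 genes), other steroid enzymes (22), transcription regulators (10) and hormone receptors (7). In 16 L against 16 C, 2 of the 10 cholesterol supply genes tested passed the threshold as higher and 2 as lower (median log2 fold change -0.01). Stard3, a late-endosomal cholesterol transporter, was at 29.4 to 39.6 RPM in 16 L against 4.47 to 4.77 RPM in 16 C (2.18, SE 0.39, edgeR adjusted p = 0.0187). Lipe, the hormone-sensitive lipase that frees stored cholesterol, was at 5.37 to 17.2 RPM in 16 L against 0.833 to 1.59 RPM in 16 C (2.54, adjusted p = 0.0309). The 16 C libraries held only 19 counts of Lipe in all. The gene passed the count filter through its level in 16 L, so its call is not taken as support for a rise. Soat1, which esterifies cholesterol for storage, fell (-2.46, adjusted p = 0.0187), as did Tspo, a mitochondrial outer membrane protein (-1.91, adjusted p = 0.0325).

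Among other steroid enzymes, 1 of 16 tested changed with leptin (list median -0.14). This was Akr1c18, the 20-alpha-hydroxysteroid dehydrogenase that breaks down progesterone, at 5.67 to 874 RPM in 16 L against 2597 to 3110 RPM in 16 C (-3.75, SE 0.97, adjusted p = 0.0449). The lowest value was that of replicate 18. Without replicate 18 the difference was -3.52 (adjusted p = 0.000280). Of 9 regulators tested, Sp1 fell (-1.96, adjusted p = 0.0138, list median 0.24), and of 6 receptors tested none passed (list median 0.34). With a library left out, the 6 named genes were called in 2 to 4 of 8 fits. With no filter Lipe (adjusted p = 0.0673), Akr1c18 (adjusted p = 0.0608) and Tspo (adjusted p = 0.0510) lost their calls, as Tspo did with library totals (adjusted p = 0.0730). In all, 6 of 41 wider genes tested were called (14.6%, against 8.56% of all genes tested). The marker differences between 16 L and 16 C stand beside these genes too.

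In 4-week HFD, 2 of 17 other steroid enzymes and 1 of 6 receptors tested rose, with none of 10 cholesterol supply genes and none of 9 regulators (list medians 0.12, 0.64, 0.00 and -0.53). Akr1c18 was at 1933 to 4364 RPM in HFD against 417 to 1454 RPM in chow (1.66, SE 0.38, edgeR adjusted p = 0.0290). Akr1c14, which reduces the 3-keto group of steroids, was at 337 to 992 RPM against 58.0 to 252 RPM (1.80, SE 0.39, adjusted p = 0.0275). Fshr, the receptor of follicle-stimulating hormone, was at 17.1 to 30.2 RPM against 0.734 to 15.8 RPM (1.87, SE 0.42, adjusted p = 0.0281). All 5 HFD libraries were above all chow libraries for these 3 genes, as for 1.93% of genes tested. Hsd17b4 did not pass (0.87, adjusted p = 0.0703). These 3 of 42 wider genes tested were 7.14%, against 4.26% of all genes tested. The calls were kept in 2 to 4 of 10 fits with a library left out. All 3 were lost without replicate 5, the library with oocyte markers (adjusted p of 0.0546 to 0.0582), and in the fit of all 34 libraries (adjusted p of 0.0557 to 0.183). Without replicate 5 the log2 fold changes were no smaller, at 1.95 (Akr1c14), 1.89 (Fshr) and 1.70 (Akr1c18).

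In 16-week HFD, 1 of 9 regulators fell and none of 10 supply genes, 15 enzymes or 6 receptors passed (list medians -0.60, -0.01, 0.00 and -0.10). This was Nr4a1, an immediate early nuclear receptor, which reached 10.7 RPM in HFD and 41.5 RPM in chow, with all 7 HFD libraries below all 6 chow libraries (-1.62, SE 0.26, edgeR adjusted p = 0.0265). It was 1 of the 3 genes called in this comparison, was called in 3 of 13 fits with a library left out, and lost its call without 16-week CD replicates 1 and 2 (-1.46, adjusted p = 0.164). Sp1 (0.98), Gata4 (-2.03) and Cyp1b1 (-0.97) did not pass (adjusted p of 0.0654, 0.0664 and 0.0695).

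Low weight gainers differed from 16-week HFD in 2 higher and 2 lower of 10 supply genes, 1 higher of 15 enzymes, 2 higher and 2 lower of 9 regulators and none of 6 receptors (list medians -0.27, -0.22, -0.55 and -0.04). Lipe was at 10.2 to 25.3 RPM against 0.752 to 6.01 RPM (2.26, SE 0.40, edgeR adjusted p = 0.00189). Stard3 (1.54), Nr4a1 (1.35, 12.7 to 29.6 RPM against 3.18 to 10.7 RPM), Cebpb (1.88) and Srd5a3 (0.82) rose as well. Abca1, which exports cholesterol, was at 42.3 to 57.5 RPM against 81.4 to 137 RPM (-1.29, SE 0.20, adjusted p = 0.00120), and Stard4 (-0.84), Creb1 (-1.16) and Sp1 (-0.92) fell. These 9 of 40 wider genes tested were 22.5%, close to the 20.7% called over all genes. Adjusted p for these 9 genes ran from 0.00120 to 0.0495. Lipe and Abca1 were called in all 10 fits with a library left out, and the fewest calls were those of Sp1 (3 of 10), Srd5a3 (5 of 10) and Stard4 (7 of 10). In the fit of all 34 libraries, Lipe, Stard3, Nr4a1 and Cebpb were called and the other 5 were not (adjusted p of 0.0713 to 0.217).

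Against 16-week CD, none of the 10 supply genes, 16 enzymes, 9 regulators or 6 receptors tested passed in low weight gainers (list medians -0.04, 0.04, -0.42 and 0.19). The smallest p belonged to Creb1 (-1.28), Abca1 (-1.53), Esr2 (-1.61) and Cyp1b1 (-1.26), with adjusted p of 0.236, 0.257, 0.342 and 0.350.

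In the test of the diet effect between the times, Fshr (-2.67), Akr1c14 (-1.76), Hsd17b4 (-1.20) and Gata4 (-2.72) passed as lower at 16 weeks and Sp1 (2.00) as higher (edgeR adjusted p of 0.0287 to 0.0461). By list these were 1 lower of 6 receptors, 2 lower of 18 enzymes and 1 higher and 1 lower of 9 regulators, with none of 10 supply genes (list medians -0.68, -0.26, -0.45 and -0.01). They were called in 8 (Hsd17b4) to 20 (Akr1c14) of 23 fits with a library left out. None was called without 16-week CD replicates 1 and 2 together (adjusted p of 0.0501 to 0.208). With the replicate number as a block, which does not pair mice, none was called either (adjusted p of 0.0621 to 0.163). In the fit of all 34 libraries Akr1c14, Gata4 and Hsd17b4 lost their calls (adjusted p of 0.0691 to 0.0934), and without 4-week HFD replicate 5 only Akr1c14 of these 5 genes was called (adjusted p = 0.0489). These 5 of 43 wider genes tested were 11.6%, against 3.66% of all genes tested.

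**Figure D5:**
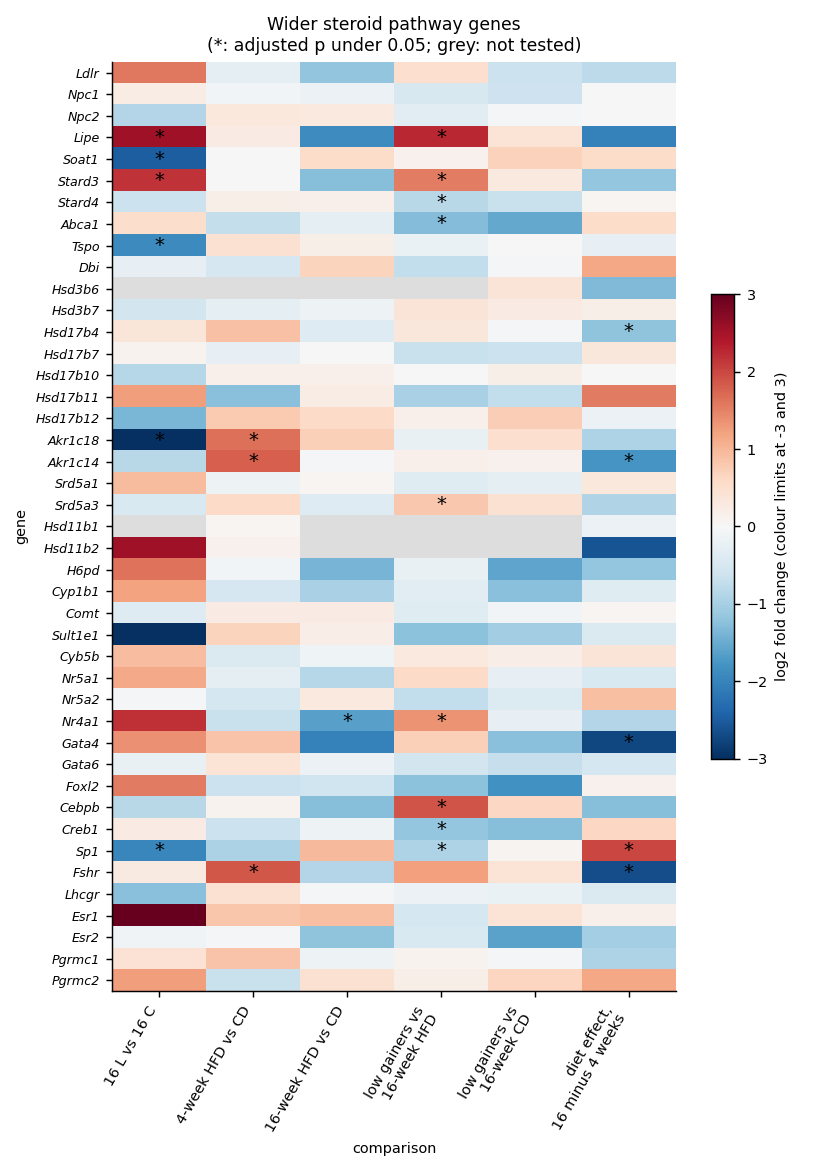
Log2 fold changes of the tested genes of the wider pathway lists in the 6 comparisons (colour, with limits at -3 and 3; an asterisk marks an edgeR adjusted p under 0.05 and grey a gene that was not tested). Asterisks are most frequent in low weight gainers against 16-week HFD, where 9 of 40 tested genes carry one (22.5%, against 20.7% of all genes tested), and none stands in low weight gainers against 16-week CD.

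Some pairs of members varied together within groups. After group means were removed from log2 TMM CPM, 11 of 36 pairs of the 9 members other than Cyp17a1 had a Pearson correlation above 0.5 over the 34 libraries. The highest were Scarb1 with Fdxr (0.83), Cyp11a1 with Fdxr (0.83) and Cyp11a1 with Hsd3b1 (0.82). Without 16 L replicate 18 these were 0.58, 0.46 and 0.44, and 5 of the 36 pairs were above 0.5. The highest of the 36 was then Scarb1 with Por (0.68, against 0.47 with it), and Scarb1 with Hsd3b1 went from 0.51 to -0.33. Star with Hsd3b1 was at 0.65 with it and 0.61 without it. Hsd17b1 and Cyp19a1 were above 0.5 with no other member in either set. These values are descriptions, and the libraries share depth and composition with each other. The share of all gene pairs above 0.5 was not computed, so the counts are not read as a trait of these members.

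Over 13236 genes, the patterns most like Star were P2rx4 (0.80), Acsl5 (0.78) and Mrap (0.78), which were at 0.76, 0.73 and 0.73 without 16 L replicate 18. Those most like Cyp11a1 were Aifm2 (0.91), Slc12a8 (0.89) and Lonp1 (0.89), at 0.76, 0.64 and 0.65 without it. Hsd3b1 was most like Bves (0.93), A830039N20Rik (0.92) and Ppic (0.90), at 0.74, 0.69 and 0.71 without it. None of these 9 genes was among the first 3 over 33 libraries without replicate 18, where Cd320 (0.83) came first for Star, Got1 (0.80) for Cyp11a1 and Mki67ip (0.81) for Hsd3b1. Cyp19a1 was most like Elf3 (0.79), BC030307 (0.75) and D330028D13Rik (0.71), of which Elf3 and BC030307 kept the first places over 33 libraries. Counts of Cyp19a1 were few in many libraries (0 in 16 C replicate 1, 1 in 16-week HFD replicate 15), so counting noise enters these values.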

How the data were processed

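RNA was captured with oligo-dT beads and libraries were made by a Smart-seq2 method. The authors deposited read counts per gene, whole numbers without normalization, for 34 libraries. The submitters' processing notes name Trim Galore 0.4.2 and HISAT2 2.0.5, with reads placed on mouse GRCm38. The counting program and its strand setting were not given in the sources used here, so reads of a gene and of an overlapping antisense gene might not be told apart. No member overlapped another counted gene, and the genes of the wider lists were not checked for this. Total counts were 1104611 to 13207018 per library and limit what can be seen of genes at a few counts.

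Groups came from the labels. Levels are reads per 1000000 counted reads (RPM) or CPM after TMM scaling. RPM per kb used the exon union of GENCODE M21 (GRCm38), and promoters came from RefSeq (GRCm38.p6). Only the groups being compared entered a fit with edgeR 4.0.16 (R 4.3.3), using TMM, filterByExpr, robust glmQLFit and glmQLFTest, two-sided, Benjamini-Hochberg adjustment over all genes tested and a threshold of 0.05. The SE is the log2 fold change over the root of F. Members that failed the filter were tested by exact permutation of log2(RPM + 1). Alternatives were DESeq2 1.42.0, limma-voom (limma 3.58.1), other scalings and filters, all 34 libraries, left-out libraries and a replicate block. The fits were also run on simulated counts, with planted changes larger than that of any member called here. No simulated library was built to stand apart, so this check does not bear on those calls. Of 72 replicate pairs, 0 were identical, and their counts differed by more than sampling noise (lowest chi-square over its degrees of freedom 2.96).

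All 10 members are described in every comparison, Cyp17a1 by its counts. Of the wider lists, the text names each gene past the threshold and, where these were fewer than 4, those of smallest p up to 4. For Star, Cyp11a1, Hsd3b1 and Cyp19a1 it names the 3 genes of highest correlation. Sts, Cyb5a, Adgre1, Hbb-bs and Hbb-bt were not matched in the table. A gene of the wider lists is not reported here. The members and lists were chosen with earlier results of these data known.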

Additional observations from a re-analysis of the deposited data

Results flagged for a closer look

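In 47 groups of 4 to 10 libraries, the highest or lowest RPM of a member was compared with the nearest other library (Dixon's criterion at 95%), and 5 stood apart. The criterion is set for normally distributed values, where chance gives about 1 group in 20. RPM need not be so distributed, and no excess over chance is drawn from this count. Fdx1 in 4-week CD replicate 11 was at 3063 RPM, and the next library was at 1458 RPM. Hsd3b1 in 16 L replicate 18 was at 262 RPM, and the next lowest leptin library was at 4134 RPM. Cyp17a1 was at 3.88 RPM (26 counts) in 16 L replicate 18 and at 0.734 RPM (1 count) in 4-week CD replicate 2, with 0 in the other libraries of either group. Both Cyp17a1 flags were fixed in advance, since a group with counts in a single library always meets the criterion. Cyp19a1 in 16-week HFD replicate 14 was at 8.27 RPM, and the next library was at 3.43 RPM.

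The effect of HFD differed between 16 and 4 weeks for Scarb1 (log2 difference -2.34) and Hsd17b1 (-1.74) by the interaction term of the edgeR fit. Neither passed without 16-week CD replicates 1 and 2.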

How the results depend on the processing

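No member changed its direction under an alternative while being called in either fit. Of the alternatives with an effect on the number of members called, limma-voom gave 6 for leptin (2 in the main result), 4 for the 4-week diet (0) and 5 for the diet effect between times (2). Library totals gave 1 for leptin and 5 for the 16-week diet (0), no filter gave 0 for leptin, DESeq2 gave 2 for the 16-week diet, and the fit of all 34 libraries gave 3 for the 16-week diet, 0 for low weight gainers against 16-week HFD (2) and 0 for the diet effect between times. With a library left out, members called for leptin numbered 4 without 16 L replicate 18 and 0 without 16 C replicate 1, 0 to 4 (the latter without 16-week CD replicate 9) for the 16-week diet, and 0 (without 4-week CD replicate 1) to 3 (without 16-week CD replicate 9) for the diet effect between times; over all genes the leptin count ranged from 30 to 4635. Labels give groups the same replicate numbers, but the numbers belong to different mice, and with the replicate number as a block 0 members were called and Fdxr was at 0.56 for the diet effect between times. The other comparisons could not be blocked, since their groups share fewer than 2 numbers. Leaving out 16-week CD replicates 1 and 2 gave 0 for the diet effect between times. Directions turned only for values that were not called. With limma-voom, these were Hsd3b1 with leptin (0.10), Scarb1 (0.43), Fdxr (0.10) and Por (0.16) in low weight gainers against CD, and Star (-0.023) and Fdxr (0.022) between times. With library totals, these were Cyp11a1 (0.64) and Hsd3b1 (0.71) with leptin, Star at 4 weeks (-0.038) and 16 weeks (-0.17), Fdx1 at 16 weeks (-0.38), Star in low weight gainers against HFD (0.083) and CD (-0.088), and Star between times (-0.13). Star between times was at -0.046 with no filter and -0.0056 with all 34 libraries, and Fdx1 at 16 weeks at -0.059 with at least 10 counts in every library. Without 16-week CD replicates 1 and 2, Star was at -0.21 at 16 weeks, -0.30 in low weight gainers against CD and -0.33 between times, Fdxr at 0.24 and 0.43 in the same order of the last comparisons, and Scarb1 (0.80) and Por (0.61) turned in low weight gainers against CD. With a library left out, the ranges that crossed 0 were -0.30 to 0.023 (Hsd3b1, leptin), -0.078 to 0.33 (Star, 4 weeks), -0.026 to 0.39 (Star, 16 weeks), -0.068 to 0.14 (Fdx1, 16 weeks), -0.047 to 0.86 (Cyp19a1, low weight gainers against HFD), -0.53 to 0.020 (Scarb1), -0.35 to 0.071 (Por) and -0.13 to 0.33 (Star) in low weight gainers against CD, and -0.20 to 0.34 (Star), -0.20 to 0.20 (Fdxr) and -0.14 to 0.21 (Hsd3b1) between times. The cause of these changes was not tested.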
